A study of Mus musculus with 24 samples.

Results

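A list of 10 imprinted growth genes was followed through 24 libraries of mouse amniotic and endothelial cells. The genes were Igf2, H19, Dlk1, Meg3, Cdkn1c, Grb10, Peg3, Mest, Peg10 and Plagl1. They were listed by name, but with earlier results of these data known, so the list is not independent of the data. A row was matched by identifier for 9 of the 10, and all 9 had a mean of at least 1 FPKM (fragments per kilobase scaled to library size), as did 14964 of the 22282 genes in the series. H19 is not analysed here. There were 3 libraries for each of 8 groups of C57BL/6J cells. By the study's methods the amniotic cells came from wild-type or tdTomato reporter mice, and which library had which is not stated. MACs were amniotic cells of mid-gestation embryos (E11.5 to E13.5), and RACVECs were MACs transduced with the Ets factors Etv2, Erg and Fli1. RACVECs were then propagated in endothelial medium with an inhibitor of transforming growth factor-beta signalling, with VEGF-A added during conversion. Whether the MAC libraries shared this medium is not stated, so the factors and the culture cannot be told apart between RACVECs and MACs. Akt-MACs and Akt-RACVECs carried myristoylated Akt in addition, and Sox17-RACVECs were RACVECs given Sox17 by lentivirus and selected with puromycin. Akt-LECs and Akt-liver ECs were lung and liver endothelial cells of adult mice, selected for CD31, transduced with the same Akt and sorted again for VEcad and CD31, and their average is called cultured adult ECs. LSECs were liver endothelial cells that were sorted and never cultured. The file header of RACVEC 3 holds the terms Flk1, GFP+ and D65, whereas the other RACVEC headers hold none of them. Whether they mean a sort, and a later day than the study's methods give for RACVECs, is not stated. The header of Akt-liver EC 3 also holds GFP+. Etv2, Erg, Fli1 and Akt were driven by the PGK promoter of a lentiviral vector, which is not restricted to a cell type. Both cultured adult groups carried Akt and MACs, RACVECs and LSECs did not, so age, organ, culture and Akt cannot be told apart where these are compared. For MACs the study's methods count separately isolated cultures, each from embryos of both sexes, as biological replicates. For the other groups neither the labels nor the methods say which libraries came from separate mice or cultures. The study's figure legends call the samples plotted from these data individual isolates, so how far their spread is technical is not known.

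Imprinted genes are read from only the maternal or only the paternal copy, because methylation laid down in the egg or sperm marks the copies differently. The growth genes among them act mainly before birth and in placenta: Igf2, Dlk1, Mest, Peg3, Peg10 and Plagl1 are read from the paternal copy, whereas H19, Meg3, Cdkn1c and, in most tissues, Grb10 are read from the maternal copy. Most are turned down after birth, and several are controlled together in domains, such as Igf2 with H19 and Dlk1 with Meg3. FPKM sum both copies, so the parent of origin of a transcript was not measured here.

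In mouse build NCBIM37 (mm9) with the GENCODE M1 annotation, 4 of the listed genes lie on chromosome 7. Igf2 covers chr7:149836673-149852721, H19 covers chr7:149761434-149764048, Cdkn1c covers chr7:150644255-150646955 and Peg3 covers chr7:6656603-6683132, all on the minus strand. Dlk1 (chr12:110691033-110701546) and Meg3 (chr12:110779211-110809936) follow each other on the plus strand. Mest (chr6:30673547-30698457), Peg10 (chr6:4697306-4710514) and Plagl1 (chr10:12810497-12851500) are on plus strands, and Grb10 (chr11:11830511-11938686) is on the minus strand. Of these, H19 is annotated as a processed transcript, Meg3 as a lincRNA and the other 8 as protein coding.

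Promoter windows of 300 bases, 250 before and 50 after a start, were read from the RefSeq table of build GRCm38.p6, which held 14 windows for 7 of the 10 genes. The hexamer TGCCGC, bound when methylated by the imprint-protecting protein Zfp57, was searched on both strands. It occurred in 11.6% of all 32851 windows and at least 2 times in 1.53%. The windows below belong to the 4 genes called higher in RACVECs than in LSECs, and for each gene the window with the most matches is shown. Capitals mark the hexamer, which is on the opposite strand in each, so that the strand shown reads GCGGCA.

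Igf2, chr7:142661222-142661521, minus strand: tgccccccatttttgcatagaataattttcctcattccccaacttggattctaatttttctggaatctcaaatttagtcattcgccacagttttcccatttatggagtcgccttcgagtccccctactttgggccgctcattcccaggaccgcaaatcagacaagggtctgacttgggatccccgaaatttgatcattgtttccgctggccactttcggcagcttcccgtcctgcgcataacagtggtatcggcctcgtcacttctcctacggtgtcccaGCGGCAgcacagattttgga
Meg3, chr12:109540746-109541045, plus strand: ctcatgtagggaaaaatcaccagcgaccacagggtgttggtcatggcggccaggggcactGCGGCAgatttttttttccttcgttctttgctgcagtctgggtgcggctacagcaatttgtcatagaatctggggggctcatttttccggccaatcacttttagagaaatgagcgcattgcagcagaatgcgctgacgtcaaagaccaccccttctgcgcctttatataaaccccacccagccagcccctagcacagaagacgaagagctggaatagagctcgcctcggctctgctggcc
Grb10, chr11:12037371-12037670, minus strand: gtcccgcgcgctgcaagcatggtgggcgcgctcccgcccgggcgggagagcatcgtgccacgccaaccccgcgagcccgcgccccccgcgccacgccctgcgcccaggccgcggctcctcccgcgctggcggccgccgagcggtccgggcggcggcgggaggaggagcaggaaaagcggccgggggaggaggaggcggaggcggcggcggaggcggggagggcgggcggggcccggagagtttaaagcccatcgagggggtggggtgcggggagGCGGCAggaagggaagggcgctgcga
Mest, chr6:30737800-30738099, plus strand: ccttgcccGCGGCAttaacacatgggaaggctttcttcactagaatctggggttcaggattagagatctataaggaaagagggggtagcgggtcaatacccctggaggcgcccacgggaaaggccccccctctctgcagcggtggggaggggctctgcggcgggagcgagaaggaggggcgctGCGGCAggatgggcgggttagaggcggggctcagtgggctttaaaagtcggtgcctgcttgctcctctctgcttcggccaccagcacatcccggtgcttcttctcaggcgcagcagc

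The Mest window held 2 matches and the other 3 held 1 each. Another Mest window starting 3 bases on held the same 2 matches, Plagl1 had 1 match in its single window, and the windows of Dlk1 and Peg3 had 0. All other windows of Igf2, Meg3 and Grb10, and the remaining Mest window, also had 0. The Grb10 window held 45 CG pairs, against 7 in the median window of the table, and stood at the 98.1th percentile. The Igf2, Meg3 and Mest windows shown held 14, 13 and 17 CG pairs. The Ets motif CCGGAAGT, without overlap with the hexamer, was in 0 of the 14 windows and in 3.89% of all windows. These letters are a description of the windows, not of binding.

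Marker lists were read beside the growth genes, as sums of FPKM per library. Liver sinusoidal markers were between 41696 and 52619 in LSECs and at most 7292 elsewhere, whereas epithelial and amniotic ectoderm markers were between 14.1 and 61.2 in MACs. The latter summed to 286, 131 and 1177 in RACVECs, all above the MACs, although 0 of 5 were called. The list did not move together. Epcam, Cdh1 and Krt8 were at 0 in every RACVEC library, and Epcam, Cdh1 and Krt14 in every MAC library. The part of these markers in the differences between RACVECs and MACs was not tested. Endothelial markers summed to between 26.1 and 130 in MACs, and to between 1781 and 3497 in RACVECs and at least 5108 in the Sox17, cultured adult and LSEC libraries. The sum of 9 mesenchymal markers was between 3173 and 8944 in MACs, between 1421 and 6044 in RACVECs and between 6.04 and 339 in Akt-RACVECs. Among cultured adult ECs, Akt-LEC 1 and Akt-liver EC 1 held 4021 and 2417, and the other 4 libraries between 28.8 and 96.3. The same 2 libraries held 1309 and 956 of macrophage and 428 and 621 of skeletal muscle markers, against at most 18.6 and 0 in the other 4, and Akt-liver EC 1 also held 1548 of epithelial markers. Both have file headers with consecutive numbers of a form that no other library has, and their deviations from the group means correlated at 0.571. Skeletal muscle markers also summed to 182 in MAC 3 and 368 in Akt-MAC 3, where Myod1, Myf5, Pax7 and Myog were at 0. Myf5 and Pax7 were at 0 in every Akt-LEC library too. LSECs held 10304 to 16652 of macrophage, 2095 to 12163 of hepatocyte and 16928 to 18352 of red blood cell markers. Depth is unknown, and fewer cells of a type and less RNA per cell cannot be told apart in these bulk samples.

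Calls were made by limma on log2(FPKM + 1) at a Benjamini-Hochberg adjusted p below 0.05, over all 14964 genes, with a log2 fold change past 1. The conversion of MACs to RACVECs gave 0 calls among the 9 genes, where 1.36% of all genes were called higher and 1.35% lower, and 2 of the 9 had an unadjusted p below 0.05. MACs exceeded cultured adult ECs in 2 genes, Dlk1 and Meg3, where 7.51% of all genes were called higher and 7.3% lower. RACVECs and Akt-RACVECs gave 0 calls each against cultured adult ECs, with background shares of 0.621% higher and 1.26% lower and of 0.0802% and 0.368%. At an unadjusted p below 0.05 there was 1 gene in each, Meg3 for RACVECs and Mest for Akt-RACVECs. Akt-RACVECs exceeded Akt-MACs in 1 gene, Mest, with 6.15% of all genes higher and 13.4% lower. The median difference of the 9 genes was -1.29 for RACVECs against MACs and 2.14 for MACs against cultured adult ECs, and over all genes tested it was 0 and -0.03. With the 2 pairs of MAC and RACVEC libraries named in the file headers as a block, Dlk1 was called in RACVECs against MACs, and Mest in place of Dlk1 and Meg3 in MACs against cultured adult ECs.

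The comparisons with LSECs held the most calls. MACs exceeded LSECs in 5 of the 9, Igf2, Dlk1, Meg3, Grb10 and Peg3, with 16.2% of all genes called higher and 16% lower. RACVECs exceeded LSECs in 4, Igf2, Meg3, Grb10 and Mest, and were lower in 1, Cdkn1c, with backgrounds of 14.7% and 15.2%. The count of 5 fell to 2 or 3 when any 1 of the 6 libraries compared was left out. Akt-liver ECs, the cultured cells of the same organ, exceeded LSECs in 3, Igf2, Grb10 and Mest, with backgrounds of 14.1% and 12.9%. These comparisons share the LSEC libraries. With the header pairs as a block, 1 gene was called in MACs against LSECs (Igf2) and 2 in RACVECs against LSECs (Igf2 and Cdkn1c). Only the unpaired MAC 1 and RACVEC 3 set the level against LSECs in that fit, so these counts show no effect of pairing. The part of the macrophage, hepatocyte and red blood cell markers of the LSEC libraries in these differences was not tested.

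**Figure D1:**
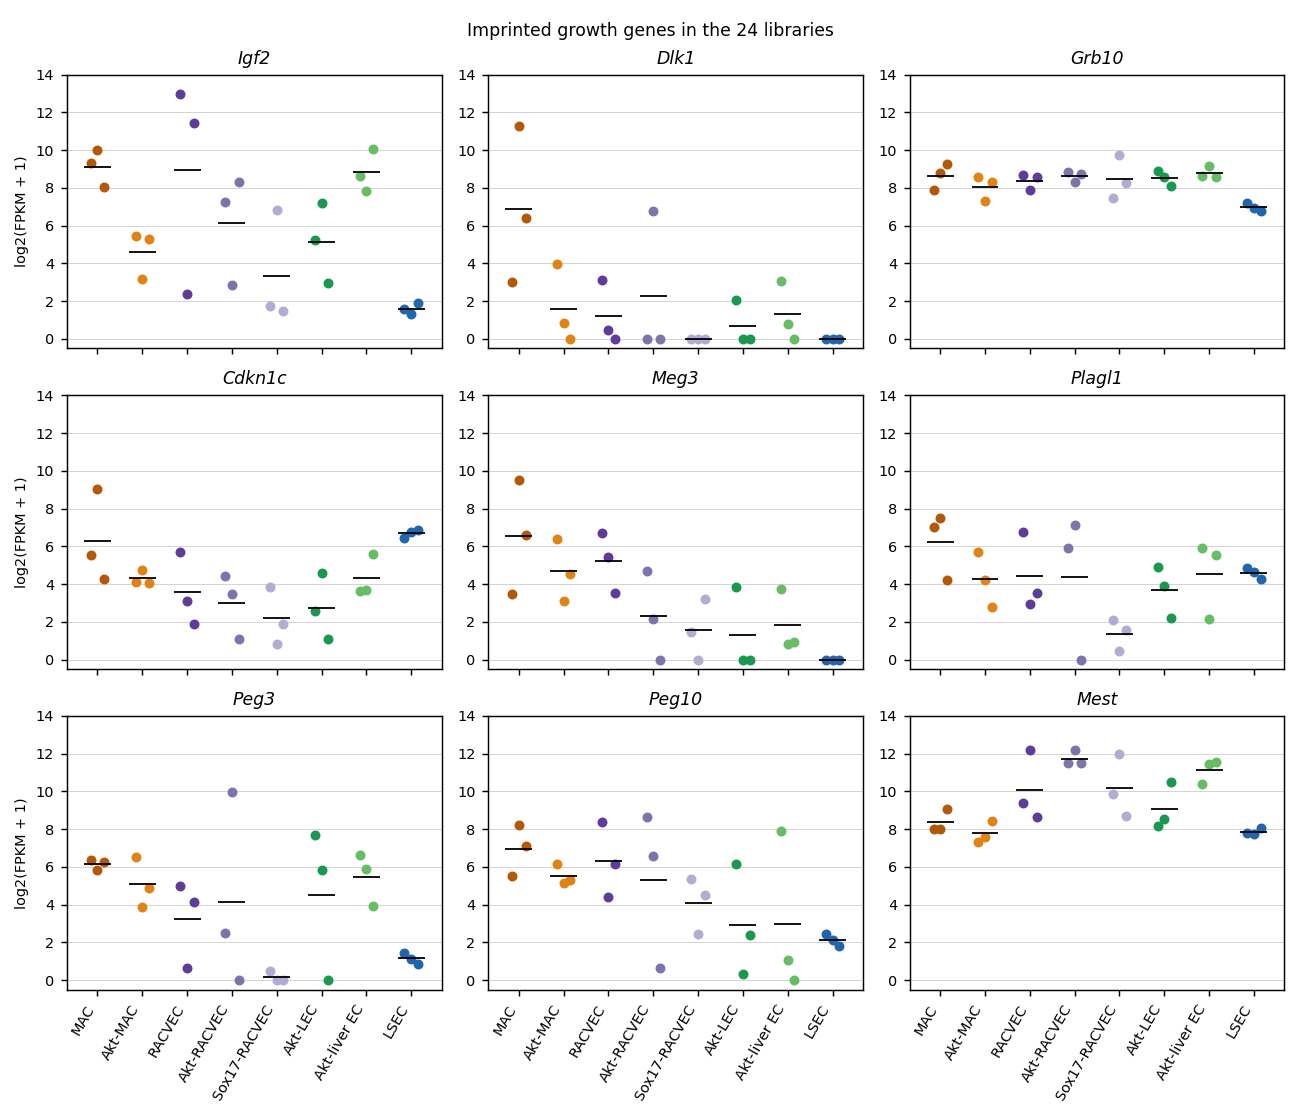
Levels of the 9 imprinted growth genes, as log2(FPKM + 1) on the vertical axis, in the 3 libraries (points) of each of 8 groups, with the group mean as a line. Grb10 stays within a narrow band outside LSECs, Mest is high in all 3 Akt-RACVEC libraries, and Igf2 and Dlk1 are spread widely within groups.

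Igf2, the fetal insulin-like growth factor, had the widest range of FPKM among the 9 genes. MACs held 633, 1041 and 258 FPKM, and Akt-MACs 42.4, 7.87 and 37.4. RACVECs held 7980, 4.1 and 2813, Akt-RACVECs 149, 6.17 and 312, and Sox17-RACVECs 2.36, 111 and 1.78. Akt-liver ECs held 390, 230 and 1054, Akt-LECs 36.2, 145 and 6.68, and LSECs 2, 1.45 and 2.66. The RACVEC libraries thus stood on either side of every MAC library, and the 3 LSEC libraries were low together with Sox17-RACVEC 1 and 3. By mean log2 level the order was MACs, RACVECs, Akt-liver ECs, Akt-RACVECs, Akt-LECs, Akt-MACs, Sox17-RACVECs and LSECs, and the libraries of each pair of neighbours in it overlapped.

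The difference in Igf2 between RACVECs and MACs was -0.19 ± 2.06 (log2, SE), with a 95% interval from -4.51 to 4.13. It was 3.09 without RACVEC 2, the library with 4.1 FPKM. Akt-MACs lay below MACs in every library (log2 difference -4.50, adjusted p = 0.332), and macrophage markers were between 811 and 35489 in Akt-MACs against at most 14.7 in MACs, whose part was not tested. Akt-LECs lay below Akt-liver ECs in every library (-3.72, adjusted p = 1). Sox17-RACVECs gave -5.58 against RACVECs (adjusted p = 0.601), with overlapping libraries, and Igf2 was called in this comparison when RACVEC 2 was left out. Against LSECs the log2 difference was 7.53 ± 2.06 in MACs (adjusted p = 0.00729), 7.34 in RACVECs (adjusted p = 0.00909) and 7.25 in Akt-liver ECs (adjusted p = 0.0108), and all libraries of these 3 groups were above all LSEC libraries. The call of RACVECs was lost without RACVEC 1 (5.32, adjusted p = 0.0624) or RACVEC 3 (6.07, adjusted p = 0.0520).

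Igf2 was summed from 3 RefSeq transcripts, of which NM_001122737 held a median share of 79% in the 15 libraries with at least 10 FPKM. A second, NM_001122736, was estimated at 52.1, 48.3 and 138 FPKM in Akt-liver ECs and at 0.01, 0.16 and 0.01 in RACVECs. RACVEC 1 and RACVEC 3 thus held the highest summed Igf2 with almost none of this transcript, and all 3 Akt-liver EC libraries held it. The transcript was not limited to Akt-liver ECs. Its estimates were 16.7, 34.4 and 0.05 in MACs, 1.72, 23.4 and 1.94 in Akt-LECs and 24.45 in Akt-RACVEC 3. These are estimates of overlapping transcripts by the authors' software, and no test was made of them.

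The receptors and binding proteins of Igf2 and insulin were read as a list of 8 genes. In MACs against cultured adult ECs 4 were called higher and 0 lower: Igf2r, the scavenging receptor that is imprinted itself, Igf2bp3, an RNA-binding protein of Igf2 mRNA, and the adaptors Irs1 and Irs2. Their log2 differences were 2.23, 3.06, 3.96 and 3.45, and the list's median was 2.44 (all genes -0.03). Of all genes, 7.51% were called higher in this comparison and 7.3% lower. Without MAC 1 only the call of Irs1 was left, with adjusted p = 0.0551 for Igf2r, 0.0768 for Igf2bp3 and 0.101 for Irs2, and without MAC 2 those of Igf2bp3 and Irs2 were lost (adjusted p = 0.109 and 0.113). Igf2r held 337, 247 and 382 FPKM in MACs, 349, 181 and 339 in RACVECs, 90, 99.7 and 17.8 in Akt-RACVECs and 10.4, 10.8 and 12.9 in LSECs. MACs and RACVECs were thus high together and LSECs lowest. Of the 8 genes, 6 were called higher in MACs than in LSECs and 6 in RACVECs than in LSECs. The shares of all genes called higher there were 16.2% and 14.7%. In RACVECs against MACs limma called 0 of the 8 (1.36% of all genes higher and 1.35% lower). Irs1 was the 1 gene with an unadjusted p below 0.05 there, and the list's median was -0.04.

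Dlk1, a membrane-bound and secreted relative of the Notch ligands that holds back differentiation, was far higher in 1 MAC library than in any other library. MACs held 6.93, 2500 and 84.7 FPKM, Akt-MACs 14.6, 0.79 and 0, and RACVECs 7.59, 0.4 and 0. Akt-RACVECs held 0, 108 and 0, Akt-LECs 3.13, 0 and 0, and Akt-liver ECs 7.49, 0.74 and 0. Sox17-RACVECs and LSECs were listed at 0 in all 3 libraries each. Outside MACs the gene was thus at 0 in 13 of 21 libraries and was above 15 FPKM only in Akt-RACVEC 2.

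Dlk1 was higher in MACs than in cultured adult ECs by 5.91 ± 1.55 (log2, SE, adjusted p = 0.0130), with overlap between MAC 1 and Akt-liver EC 1. Without MAC 2 the difference was 3.72 (adjusted p = 0.0984) and the call was lost. RACVECs against MACs gave -5.70 ± 1.79 (adjusted p = 0.0926, interval -9.45 to -1.95), and Dlk1 was called there when MAC 1 or Akt-RACVEC 2 was left out. Akt-MACs against MACs gave -5.30 (adjusted p = 0.138), with a call when MAC 1 was left out and with the macrophage markers of Akt-MACs given above. MACs were also called above LSECs (adjusted p = 0.00506).

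Meg3, a long non-coding RNA of the same domain read from the opposite parental copy, was also highest in MAC 2. MACs held 9.97, 722 and 97.2 FPKM, Akt-MACs 82.2, 7.71 and 22.1, and RACVECs 104, 42.2 and 10.7. Akt-RACVECs held 25.2, 3.39 and 0, Sox17-RACVECs 1.71, 0 and 8.08, Akt-LECs 13.2, 0 and 0, and Akt-liver ECs 12.2, 0.75 and 0.93. LSECs were listed at 0 in all 3. MACs, Akt-MACs and RACVECs thus overlapped throughout, and the 2 cultured adult libraries above 1 FPKM were Akt-LEC 1 and Akt-liver EC 1.

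Meg3 in MACs exceeded cultured adult ECs by 4.97 ± 1.29 (log2, SE, adjusted p = 0.0120), with overlap of MAC 1 and the same 2 libraries. Without MAC 2 this was 3.49 (adjusted p = 0.0839), and without Akt-LEC 1 and Akt-liver EC 1 it was 6.08 (adjusted p = 0.00333). RACVECs against MACs gave -1.29 ± 1.48 (adjusted p = 0.690). RACVECs against cultured adult ECs gave 3.68 ± 1.29 (adjusted p = 0.148), and 4.79 (adjusted p = 0.0396) without those 2 libraries. Those 2 held the highest Meg3 of the cultured adult ECs. They were left out after the data were seen, so both differences could only grow. Sox17-RACVECs lay below RACVECs in every library (-3.69, adjusted p = 0.649). MACs and RACVECs were called above LSECs (adjusted p = 0.00194 and 0.00974).

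The neighbours of Dlk1 and Meg3 were read from a list of 4 genes. Rian and Mirg, non-coding RNAs that follow Meg3 on its strand and carry small RNAs, were called higher in MACs than in cultured adult ECs (log2 differences 4.95 and 2.87), as was Dio3, a thyroid hormone deiodinase at the end of the domain (4.23). The median of the 4 was 3.55, against -0.03 over all genes, of which 7.51% were called higher and 7.3% lower. As for Dlk1 and Meg3, the 3 calls were lost without MAC 2, where the differences were 3.63, 1.73 and 3.17 (adjusted p = 0.0882, 0.174 and 0.163). With only the groups compared in the fit, those of Rian and Mirg were lost (adjusted p = 0.0646 and 0.094). Rian held 15.7, 686 and 117 FPKM in MACs, 74.4, 80.6 and 9.69 in RACVECs and 18.8, 0 and 0 in Akt-LECs. Over the 24 libraries Rian was the gene most correlated with Meg3 (Pearson r = 0.986) and Mirg the next (0.906). The paternally read Rtl1 was not called, and it held 87.4 FPKM in Akt-RACVEC 2 and at most 1.25 in the other 23 libraries. That library was also the 1 outside MACs with Dlk1 above 15 FPKM.

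Peg10, a retrotransposon-derived gene needed in the placenta, was between 35 and 297 FPKM in the 6 MAC and Akt-MAC libraries. RACVECs held 328, 20.1 and 69.7, Akt-RACVECs 405, 96.5 and 0.57, and Sox17-RACVECs 40.9, 4.41 and 21.6. Akt-LECs held 69.9, 0.25 and 4.2, Akt-liver ECs 242, 1.07 and 0, and LSECs 4.4, 3.38 and 2.46. Akt-LEC 1 and Akt-liver EC 1 thus stood with the MACs, and the other 4 cultured adult libraries with the LSECs.

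MACs against cultured adult ECs gave 3.99 ± 1.70 for Peg10 (log2, SE, adjusted p = 0.102). Without Akt-LEC 1 and Akt-liver EC 1 the difference was 6.02 (adjusted p = 0.00622), and RACVECs against cultured adult ECs moved from 3.33 (adjusted p = 0.357) to 5.37 (adjusted p = 0.0352). These 2 libraries held the highest Peg10 of the cultured adult ECs. They were left out after the data were seen, so both differences could only grow. Among cultured adult libraries they were also the 2 with mesenchymal markers of 2417 FPKM or more. The part of these markers in Peg10 was not tested. Akt-RACVEC 1, with 405 FPKM of Peg10, held 339 of mesenchymal markers. The genes most like Peg10 over the 24 libraries were Fgf7 (r = 0.903), a growth factor of mesenchymal cells, Mrc2 (0.878) and Cited2 (0.847). Of its neighbours, 1 of 5 tested was called in MACs against cultured adult ECs (7.51% of all genes higher and 7.3% lower). This was Sgce, a sarcoglycan that starts beside Peg10 (2.72, higher). Its call was lost under 8 of 36 alternatives, each left-out MAC library among them.

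**Figure D2:**
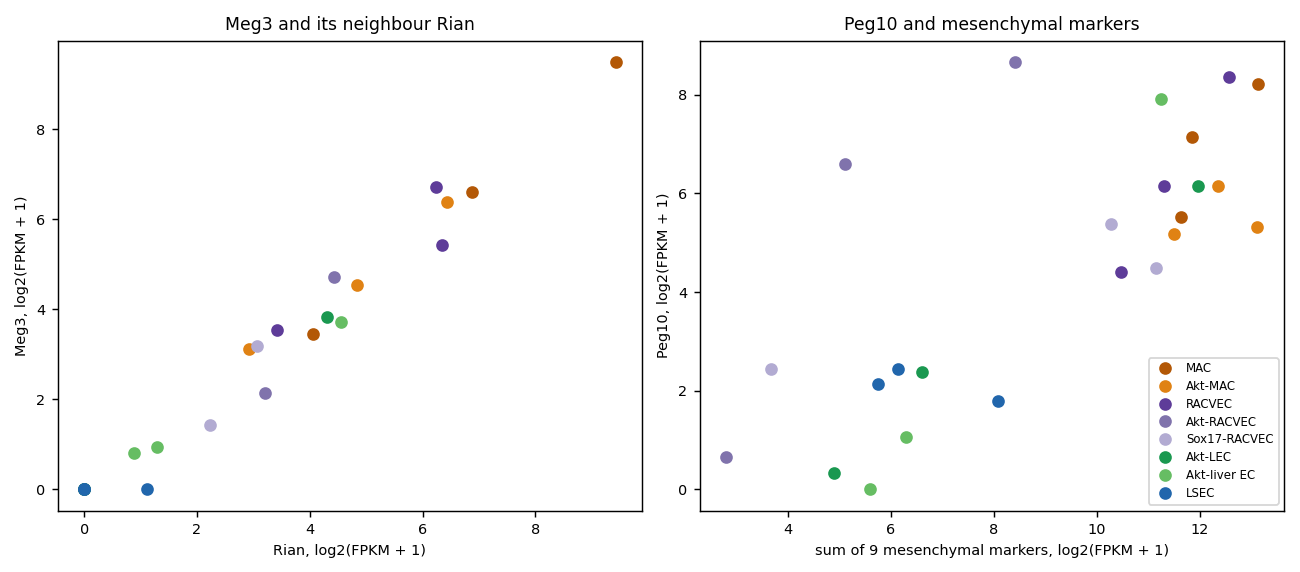
Each point is 1 of 24 libraries, coloured by group, on log2(FPKM + 1) axes. Meg3 against Rian on the left forms a single band from the libraries at 0 to MAC 2, whereas Peg10 against the sum of 9 mesenchymal markers on the right has Akt-RACVEC 1 and 2 high in Peg10 at a low marker sum.

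Peg3, a zinc finger protein with a role in maternal behaviour and fetal growth, was even in MACs, at 80.3, 56.5 and 75.3 FPKM. Akt-MACs held 89.9, 13.8 and 29, RACVECs 31.4, 0.55 and 16.7, and Sox17-RACVECs 0.38, 0 and 0. Akt-RACVECs held 4.73, 1013 and 0, Akt-LECs 204, 56.5 and 0, Akt-liver ECs 96.8, 59.1 and 14.3, and LSECs 1.76, 1.22 and 0.81. The 3 RACVEC libraries thus lay below the 3 MAC libraries, and Akt-RACVEC 2 above all others.

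The log2 difference of Peg3 between RACVECs and MACs was -2.88 ± 1.95 (adjusted p = 0.437), and between Sox17-RACVECs and RACVECs -3.11 (adjusted p = 0.844), in both cases without overlap of the libraries. MACs against LSECs gave 4.99 (adjusted p = 0.0492), a call that was lost under 24 of 36 alternatives. Akt-liver ECs against LSECs gave 4.33 (adjusted p = 0.0940). Zim1, the 1 neighbour of Peg3 that could be tested, held 82.4 FPKM in Akt-RACVEC 2 and at most 7.71 elsewhere. Peg3os, annotated on the opposite strand, was the gene most like Peg3 (r = 0.916), as Igf2os was for Igf2 (r = 0.896). Strand is not stated for these libraries, so reads of a gene and its antisense partner cannot be told apart.

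Akt-RACVEC 2 was therefore the library with the highest Peg3, Zim1 and Rtl1, and with the highest Dlk1 outside MACs. Its mesenchymal markers summed to 33.8 FPKM and its endothelial markers to 14974. Its skeletal muscle markers were at 0. In Akt-RACVEC 3, in contrast, Dlk1, Meg3, Peg3 and Plagl1 were listed at 0 and Peg10 at 0.57, so that 5 of the 9 genes were below 1 FPKM. Sox17-RACVEC 2 also had 5 below 1, whereas all 9 were above 1 in each MAC library. Of all genes tested, 21.4% were below 1 FPKM in Akt-RACVEC 3 and 21.1% in Sox17-RACVEC 2, and between 7.4% and 18% in the other libraries.

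Plagl1, a zinc finger regulator of other imprinted genes, held 129, 179 and 17.6 FPKM in MACs and 51.3, 17.8 and 5.96 in Akt-MACs. RACVECs held 107, 6.81 and 10.5, Akt-RACVECs 59.6, 138 and 0, and Sox17-RACVECs 3.19, 0.35 and 2. Akt-LECs held 29, 13.9 and 3.65, Akt-liver ECs 58.8, 3.45 and 45.8, and LSECs 28.1, 23.7 and 17.9. All groups overlapped with MACs except Sox17-RACVECs, whose 3 libraries were below every MAC and RACVEC library. Plagl1 passed no test, with -3.05 ± 1.50 for Sox17-RACVECs against RACVECs (log2, SE, adjusted p = 0.761) and -1.83 ± 1.50 for RACVECs against MACs (adjusted p = 0.538).

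Cdkn1c, an inhibitor of the cell cycle that restrains fetal growth, was evenly high in LSECs, at 86.7, 109 and 117 FPKM. MACs held 45.6, 521 and 18.1, Akt-MACs 16.5, 26.1 and 15.5, and RACVECs 50.8, 7.49 and 2.66. Akt-RACVECs held 20.5, 9.94 and 1.14, Sox17-RACVECs 13.3, 0.8 and 2.64, Akt-LECs 4.95, 23 and 1.11, and Akt-liver ECs 11.53, 11.7 and 46.6. Every cultured library other than MAC 2 was thus below every LSEC library.

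RACVECs were lower than LSECs in Cdkn1c by a log2 difference of -3.15 ± 1.20 (adjusted p = 0.0463), a call lost under 17 of 36 alternatives. RACVECs against MACs gave -2.72 ± 1.20 (adjusted p = 0.217), and MACs against cultured adult ECs 2.75 ± 1.04 (adjusted p = 0.0678). Akt-liver ECs against LSECs gave -2.41 (adjusted p = 0.131). Proliferation markers summed to between 244 and 456 FPKM in MACs, 313 and 710 in LSECs, 414 and 1065 in RACVECs and 344 and 1739 in cultured adult ECs. Their part in the Cdkn1c levels was not tested.

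Grb10, an adaptor that binds the insulin and Igf1 receptors and restrains growth, was the steadiest of the 9 genes. Its levels were between 156 and 840 FPKM in all 21 libraries other than LSECs, and between 106 and 144 in LSECs, so that no LSEC library reached any other. RACVECs differed from MACs by -0.27 ± 0.46 (log2, SE, interval -1.23 to 0.69, adjusted p = 0.822). LSECs were exceeded by MACs by 1.69 ± 0.46 (adjusted p = 0.00677), by RACVECs by 1.43 ± 0.46 (adjusted p = 0.0200) and by Akt-liver ECs by 1.82 ± 0.46 (adjusted p = 0.00501). Of these, the difference of Akt-liver ECs was called under all 36 alternatives, that of MACs under all but 2 and that of RACVECs under all but 6. Without RACVEC 1, RACVEC 3, LSEC 2 or LSEC 3 the last had an adjusted p between 0.0502 and 0.0698.

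Mest, a hydrolase-like protein of fetal mesoderm, was the gene that differed with the conversion in the presence of Akt. Akt-MACs held 158, 195 and 349 FPKM and Akt-RACVECs 2913, 4620 and 2956. MACs held 255, 259 and 546, RACVECs 672, 4666 and 401, and Sox17-RACVECs 932, 4120 and 419. Akt-LECs held 283, 378 and 1427, Akt-liver ECs 1358, 2770 and 3066, and LSECs 222, 210 and 268. Akt-RACVECs and Akt-liver ECs thus had all libraries at 1358 FPKM or more, and MACs, Akt-MACs and LSECs all libraries at 546 or less.

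The log2 difference of Mest was 3.95 ± 0.82 for Akt-RACVECs against Akt-MACs (SE, adjusted p = 0.00281), with no overlap and a call under all 36 alternatives. In this comparison macrophage markers were between 811 and 35489 FPKM in Akt-MACs and between 5.35 and 153 in Akt-RACVECs, and mesenchymal markers between 2894 and 8891 against 6.04 to 339. Their part in the difference was not tested. Without Akt, RACVECs against MACs gave 1.70 ± 0.82 (adjusted p = 0.258, interval -0.01 to 3.42), with RACVEC 3 inside the range of the MACs, and 0.65 without RACVEC 2. Akt-RACVECs against RACVECs gave 1.66 (adjusted p = 0.332), and the difference between the Akt effects in RACVECs and MACs was 2.24 ± 1.16 (adjusted p = 0.458). For Dlk1 this interaction was 6.36 ± 2.53 (adjusted p = 0.302), and 0 of the 9 genes passed it, with 1 at an unadjusted p below 0.05 and 0.1% of all genes called.

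Against endothelial cells, Mest in Akt-RACVECs exceeded cultured adult ECs by 1.63 ± 0.71 (log2, SE, adjusted p = 0.289), and MACs were at -1.73 ± 0.71 (adjusted p = 0.0900). Akt-LECs differed from Akt-liver ECs by -2.08 ± 0.82 (adjusted p = 1), with Akt-LEC 3 above Akt-liver EC 1. Akt-liver ECs exceeded LSECs by 3.28 ± 0.82 (adjusted p = 0.00464), and RACVECs exceeded LSECs by 2.21 ± 0.82 (adjusted p = 0.0404), the latter lost under 8 of 36 alternatives and at 1.16 without RACVEC 2 (adjusted p = 0.259). The neighbours Copg2 and Cep41 were not called by limma in RACVECs against MACs, Akt-RACVECs against Akt-MACs or MACs against cultured adult ECs, where 0, 1 and 1 of them had an unadjusted p below 0.05 (Copg2 in both).

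**Figure D3:**
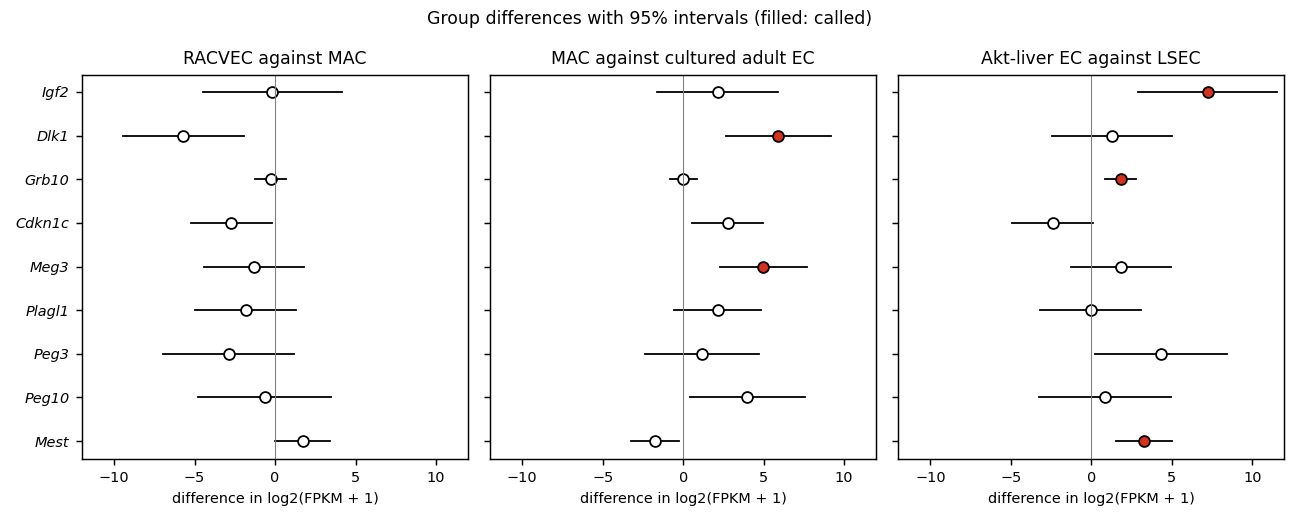
Difference in log2(FPKM + 1) on the horizontal axis for each of the 9 genes in 3 comparisons, with the 95% interval from limma as a line and called genes as filled points. No gene is filled for RACVECs against MACs, Dlk1 and Meg3 are filled for MACs against cultured adult ECs, and Igf2, Grb10 and Mest for Akt-liver ECs against LSECs.

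The addition of Akt to MACs or RACVECs, and of Sox17 to RACVECs, gave 0 calls by limma among the 9 genes. For Akt-MACs against MACs 2.59% of all genes were called higher and 0.214% lower, and Dlk1 and Igf2 had an unadjusted p below 0.05. In this comparison 4 of 5 macrophage markers were called higher in Akt-MACs. For Akt-RACVECs against RACVECs the shares were 0.221% and 0.0401%, with 0 of the 9 at an unadjusted p below 0.05. For Sox17-RACVECs against RACVECs they were 0% and 0.00668%, with Igf2 and Meg3 at an unadjusted p below 0.05. Meg3 in Akt-RACVECs stood at -2.95 ± 1.48 against RACVECs (log2, SE, adjusted p = 0.341). Akt-LECs against Akt-liver ECs gave 0 calls with backgrounds of 0% and 0.0134%, and Mest had an unadjusted p below 0.05.

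The spread between libraries of a group was larger for most of these genes than for the typical gene. The within-group SD of log2(FPKM + 1) had a median of 0.51 and a 90th percentile of 1.46 over the 14964 genes, and a median of 1.96 over the 9. It was 2.71 for Igf2, 2.58 for Peg10, 2.56 for Peg3 and 2.34 for Dlk1, which put these 4 at or above the 98.9th percentile of all genes. Plagl1 (1.96), Meg3 (1.94) and Cdkn1c (1.57) were above the 90th percentile, whereas Mest (1.07) was at the 79.4th and Grb10 (0.59) at the 56.4th. Among genes of like mean level, Igf2, Peg10, Peg3 and Dlk1 stood at the 98.6th percentile or above, Mest at the 95th, Plagl1 at the 94.5th, Meg3 at the 91.8th, Cdkn1c at the 88.5th and Grb10 at the 82nd. The spread of each gene is part of the error in every comparison above.

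**Figure D4:**
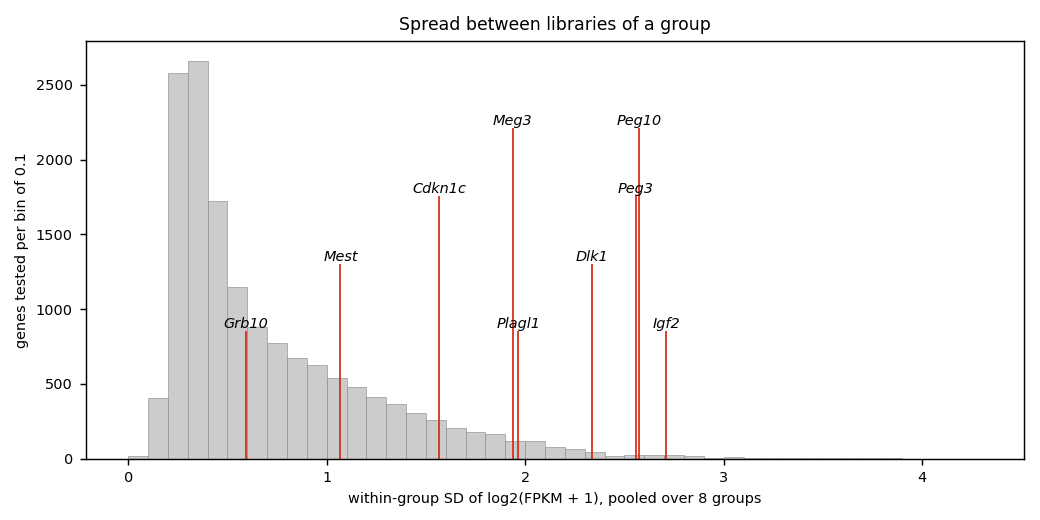
Histogram of the within-group SD of log2(FPKM + 1) over the 14964 genes tested, pooled over 8 groups, in bins of 0.1, with a red line for each of the 9 imprinted growth genes (line height carries no value). Grb10 lies near the bulk of genes and Igf2, Peg10, Peg3 and Dlk1 lie in the upper tail.

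The 9 genes did not vary as 1 unit across the libraries. Over the 24 libraries the highest correlation between members was 0.818 for Meg3 with Peg10, and after removal of the group means it was 0.759. Dlk1 and Meg3, of the same domain, gave 0.690, Cdkn1c and Plagl1 0.685 and Igf2 and Grb10 0.651. Mest was at -0.479 with Cdkn1c and -0.218 with Meg3. These are descriptions over libraries that share groups, transgenes and processing.

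In the file headers MAC 2 shares a number with RACVEC 1, and MAC 3 the word later with RACVEC 2, which gives 2 pairs by name. In the first, Igf2 was 1041 in the MACs and 7980 in the RACVECs, Dlk1 was 2500 and 7.59, and Meg3 was 722 and 104 FPKM. In the second, Igf2 was 258 and 4.1, Dlk1 84.7 and 0.4, and Meg3 97.2 and 42.2. Mest was 259 and 672 in the first pair and 546 and 4666 in the second. Dlk1 and Meg3 thus were lower and Mest higher in the RACVECs of both pairs, and Igf2 differed in direction.

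Among imprinted genes of other domains, 27 were tested. In MACs against cultured adult ECs 4 were called higher and 0 lower: Igf2r and its antisense RNA Airn, the brain-expressed Nnat and the phosphatase gene Inpp5f, with log2 differences of 2.23, 3.79, 2.70 and 1.44. The median of the 27 was 0.47, against -0.03 over all genes, of which 7.51% were called higher and 7.3% lower. The call of Nnat was lost under 21 of 36 alternatives (1.62, adjusted p = 0.265, without MAC 2), and that of Inpp5f without MAC 3 (0.74, adjusted p = 0.0896). In RACVECs against MACs limma called 0, and 5 had an unadjusted p below 0.05. Of 8 tested neighbours of Igf2 and Cdkn1c, the potassium channel Kcnq1 was called lower in MACs than in cultured adult ECs (adjusted p = 0.000743), with MACs listed at 0. Kcnq1 held 41.9, 61.8 and 82.7 FPKM in Akt-RACVECs and 153, 148 and 116 in LSECs. Its antisense RNA Kcnq1ot1, which silences the domain, had a mean of 0.227 FPKM and was not tested.

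Genes that keep imprints were read as a list of 13, of which 10 were tested. In MACs against cultured adult ECs 0 were called higher and 4 lower, namely the maintenance methyltransferase Dnmt1 (log2 difference -1.07), its partner Uhrf1 (-1.61), the de novo methyltransferase Dnmt3b (-1.98) and Zfp57 (-1.89). The list's median was -0.53, against -0.03 over all genes, of which 7.51% were called higher and 7.3% lower. Zfp57 held 8.46, 66.9 and 10.8 FPKM in MACs, 52.3, 48.9 and 71.8 in RACVECs, 12.4, 7.2 and 57.7 in Akt-MACs and 114, 112 and 139 in Akt-RACVECs. MAC 2 thus was within the range of the RACVECs, and the Akt-RACVECs were highest. In Akt-RACVECs, Dnmt1 and Zfp57 were higher than in Akt-MACs (1.10 and 2.71, adjusted p = 0.0485 and 0.00686), where 6.15% of all genes were called higher. In that comparison 5 of 6 proliferation markers had an unadjusted p below 0.05, and Akt-MACs held the macrophage markers given above. The part of these markers was not tested. In RACVECs against MACs limma called 0 of the 10, and Zfp57 had an unadjusted p below 0.05. The calls of Dnmt1 and Uhrf1 against cultured adult ECs were lost without Akt-LEC 1 and Akt-liver EC 1, with differences of -0.79 and -1.10. Without MAC 1 those of Dnmt1, Uhrf1 and Zfp57 were lost (adjusted p = 0.149, 0.216 and 0.163), all 4 were lost with only the groups compared in the fit, and that of Uhrf1 was lost under 22 of 36 alternatives. In the same comparison 4 of 6 proliferation markers were called lower in MACs, and their part in the levels of Dnmt1 and Uhrf1 was not tested.

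For the other genes except Grb10, the 3 most like each over the 24 libraries were as follows. For Igf2 they were Igf2os, Foxc2 and Gm20735, and for Dlk1 Dmp1, Fam83f and Slc2a4, at r between 0.788 and 0.896. For Meg3, Rasl12 came after Rian and Mirg (0.896), and for Peg3, Obsl1 and Sdk1 after Peg3os. For Cdkn1c they were Frat1, Pink1 and Rab9, and for Mest Med24, Uggt1 and Arsa, at r between 0.804 and 0.854. For Plagl1 they were Mrvi1, Tmem100 and Bfsp1, at r between 0.770 and 0.815.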

How the data were processed

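RNA was measured in 24 libraries of 8 groups. The authors made TruSeq libraries, sequenced paired reads of 51 bp, mapped them with TopHat to mm9 and ran Cufflinks with upper-quartile normalization and sequence bias correction. Versions and the annotation release are not given in the sources used here. The authors deposited FPKM, 1 value for each of 27583 RefSeq transcripts. FPKM keep no read counts, so depth is unknown and no counting error or detection limit can be given, and an exact 0 may be a failed estimate.

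Symbols were matched for 26934 transcripts, and 649 stayed as rows of their own. Transcripts of a symbol were summed to 22282 genes. Groups were compared with limma 3.58.1 (R 4.3.3) on log2(FPKM + 1), so fold changes understate those of low genes. A single fit covered 24 libraries and 8 groups, with a variance trend, and p-values were two-sided. The 14964 genes whose mean FPKM reached 1 entered the Benjamini-Hochberg adjustment. A gene was called where its adjusted p was below 0.05 and its log2 difference lay beyond 1 or -1. Levels, correlations and plots used Python 3.11.15, numpy 2.4.6, pandas 2.3.3 and matplotlib 3.10.9. The procedure was tested on simulated data.

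The genes and lists were chosen with earlier results of these data known. All listed genes were described in every group, list members were named where called in RACVECs against MACs or MACs against cultured adult ECs, and the 3 most correlated other genes were named for each except Grb10, for which they are not reported here. Rtl1, Zim1, Kcnq1ot1, Copg2 and Cep41, and values of Akt-RACVEC 2, were named after their values were seen. Replicate numbers were not taken to pair the libraries, as correlations of same-numbered deviations were not above 0.1 in every pair of any comparison. Akt-LECs and Akt-liver ECs came closest, at 0.571, 0.366 and -0.05. The fit treated their libraries as independent. Library groups came from sample titles, and 0 pairs of libraries were identical. Alternatives were pseudocounts of 0.1 and 10, no filter, a mean FPKM of at least 10, only the groups compared, the replicate number as a block, median scaling, variances without a trend, the highest transcript, leaving out each library, and the study's own criterion (an unadjusted p below 0.05 and a log2 ratio of means past 1). Header pairs as a block, and leaving out Akt-LEC 1 with Akt-liver EC 1, were added after seeing the data.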

Additional observations from a re-analysis of the deposited data

How the results depend on the processing

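The counts of called genes in 13 tests were recomputed under alternatives. Of 467 recomputed counts, 444 stayed within 1.5 times the reported count and 23 moved. A count of 0 that stayed at 0 was included in the 444. Many alternatives also left out a library outside the comparison, so this share is no measure of stability. With each library left out in turn, the count was between 0 and 1 for RACVECs against MACs (1 without MAC 1 or Akt-RACVEC 2), for Akt-MACs against MACs (1 without MAC 1) and for Sox17-RACVECs against RACVECs (1 without RACVEC 2). It was between 0 and 3 for MACs against cultured adult ECs (0 without MAC 2), between 2 and 5 for RACVECs against LSECs, between 4 and 6 for MACs against LSECs and between 3 and 4 for Akt-liver ECs against LSECs. With only the groups compared in the fit, MACs against cultured adult ECs gave 0 and Akt-liver ECs against LSECs 5. By the study's criterion, RACVECs against MACs gave 1 (Peg3), MACs against cultured adult ECs 0, Akt-RACVECs against cultured adult ECs 1 (Mest), MACs against LSECs 1 and RACVECs against LSECs 1. With the header pairs as a block, RACVECs against MACs gave 1 (Dlk1), MACs against cultured adult ECs 1 (Mest), MACs against LSECs 1 and RACVECs against LSECs 2. Against cultured adult ECs and LSECs, only MAC 1 and RACVEC 3 set the level in that fit. Without Akt-LEC 1 and Akt-liver EC 1, the cultured adult libraries highest in Meg3 and Peg10, RACVECs against cultured adult ECs gave 2 (Meg3 and Peg10). The cause of these moves was not tested, except that some use fewer libraries.

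The replicate numbers were not taken as pairs. With the replicate number as a block the counts were 0 for RACVECs against MACs, 1 for Akt-RACVECs against Akt-MACs, 2 for MACs against cultured adult ECs, 6 for MACs against LSECs, 5 for RACVECs against LSECs and 3 for Akt-liver ECs against LSECs, and the block moved no count by over 1.5 times.

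Of 62 single differences under 2227 alternatives, 2003 kept their direction and side of the threshold, 186 lost a call, 31 gained one and 7 changed direction. All 7 were in RACVECs against MACs. Igf2 (reported at -0.19) became 0.27 with a pseudocount of 10, 0.26 without MAC 2 and 2.48 by the study's criterion, and ranged from -2.21 to 3.09 (without RACVEC 2) with each library left out. Meg3 ranged from -2.82 to 0.20 (without MAC 2), Grb10 from -0.64 to 0.032 (without MAC 3) and Peg10 from -1.69 to 0.29 (without RACVEC 2). Depth is unknown, and the number of libraries limits every comparison.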
